A study of Mus musculus with 9 samples.

Results

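Aminoacyl-tRNA synthetases, the enzymes that load each amino acid onto its transfer RNA (tRNA), were examined in mouse T cell lymphoma and in normal CD4 T cells. Genes were taken by symbol from the deposited count table, with no rule on their values but with earlier results of these data known. In all, 38 of the 46078 listed genes carried the symbol of a synthetase. Of these, 21 encode cytosolic enzymes and 17 mitochondrial enzymes, whose symbols end in 2. Tarsl2 also ends in 2 but encodes a cytosolic threonyl enzyme and was placed there, and Gars and Kars, which serve both compartments from a single gene, were counted as cytosolic. Transcript 3′ ends were sequenced in 6 lymphomas and 3 controls, all of the C57BL/6J strain. The lymphoma samples are T cell lymphoma cells from the thymus that were induced by MYCN, a transcription factor of the MYC family, and carry the labels 34, 53, 56, 70, 72 and 86. The controls, CD4 1, 2 and 3, are CD4+ T cells from the spleen. The labels used here give no age, no promoter or cell type for the MYCN allele and no word on whether the lymphomas came from separate animals, so p-values measure the spread between these samples. Tissue of origin and group cannot be told apart.

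Each synthetase activates its amino acid with ATP and transfers it to the matching tRNA. The enzymes fall into class I and class II by the fold of their catalytic domain. In the cytosol of mammals, part of them sit together in a multisynthetase complex held by the scaffold proteins AIMP1, AIMP2 and EEF1E1. Mitochondria translate a small set of respiratory chain proteins with a mostly separate set of synthetases, which are encoded in the nucleus and imported. Growing cells need charged tRNA for protein synthesis, and MYC proteins are known regulators of genes of translation. The stress factor ATF4 is known to act on many cytosolic synthetase genes when amino acids run short.

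Reads counted in genes ranged from 11170704 to 15769679 per lymphoma and from 8099960 to 10808828 per CD4 library. They made up 38.7 to 49.1% of all reads in lymphoma and 27.8 to 35.0% in CD4. The T cell genes Cd3d, Cd3e, Cd3g and Lck were present in all libraries, and the summed level of 9 T cell markers was 1753 to 3462 CPM in lymphoma and 2476 to 2539 CPM in CD4, where CPM scales counts to 1000000 reads in genes. Cd4 itself stood at 199 to 263 CPM in the controls and at 6.04 to 71.9 CPM in lymphoma. Of the 9 markers 0 were called higher and 2, Cd4 and Cd2, lower. Among all tested genes 24.7% were called higher and 21.9% lower. Cd2 fell (log2 fold change -1.15, SE 0.302, edgeR adjusted p 0.00874), with 289 to 309 CPM in CD4 and 98.8 to 279 CPM in lymphoma. Markers of B cells (10 of 10 listed genes in the table) summed to 1147 to 1440 CPM in CD4 and 7.12 to 12.9 CPM in lymphoma, and 8 myeloid markers to 609 to 875 CPM against 48.9 to 197 CPM. The 8 erythroid markers summed to 101 to 359 CPM in CD4 and 22.9 to 902 CPM in lymphoma. Lymphoma 86 alone had 261 CPM of Hba-a1 and 369 CPM of Hbb-bs. Hemgn, also of this list, rose by 5.87 (SE 0.862, edgeR adjusted p 0.000239), with 10.7 to 43.7 CPM in lymphoma and 0 to 0.763 CPM in CD4. The 8 stromal, endothelial and epithelial markers summed to 214 to 240 CPM in CD4 and 96.4 to 180 CPM in lymphoma. That last sum was mostly Pecam1 (186 to 199 CPM in CD4 and 59.3 to 81.3 CPM in lymphoma). The endothelial gene Kdr had only 1.47 to 5.40 CPM in CD4 and 0 to 0.437 CPM in lymphoma. Of the 7 tested genes of the list 2 rose and 2 fell, shares not far from the 24.7% and 21.9% over all tested genes. Epcam, an epithelial gene, rose by 3.85 (SE 0.655, edgeR adjusted p 0.000577), and Dcn, a fibroblast gene, had 1.72 to 7.36 CPM in lymphoma and 0 in every CD4 library. None of the B cell or myeloid markers was at 0 in every library of a group. The part of these cell types in the results below was not tested. Proliferation genes were called higher in lymphoma in 20 of 20 cases, against 24.7% of all tested genes, with a median log2 fold change of 3.39. Ccnb1, a mitotic cyclin, rose most (4.32, SE 0.423, edgeR adjusted p 1.11e-05). The part of cell division in the synthetase results was likewise not tested. Lymphoma 53 stood apart from the other lymphomas in several of these genes. It had 29.4 CPM of Cd8a where the others had at most 1.53, and 1534 CPM of Thy1 against 501 to 611. It also had 165 CPM of Mki67 against 455 to 503 and 269 CPM of the interferon gene Irf8 against 31.9 to 72.3. In the CD4 controls Cd8a stood at 25.6 to 31.8 CPM and Irf8 at 311 to 328 CPM. Thy1 had 378 to 462 CPM there, and Mki67 38.3 to 46.7 CPM. Cd8b1 had 35.9 to 44.9 CPM in the controls and 47.6 CPM in lymphoma 53, with at most 0.735 CPM in the other lymphomas. The part of these CD8 transcripts in the results below was not tested. In bulk samples, fewer cells of a type and less RNA per cell cannot be told apart.

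Transcripts of cytosolic synthetases were higher in lymphoma almost throughout, while those of mitochondrial synthetases were split. All 38 genes had enough counts to be tested, and 28 of them were called in either direction, against 46.6% of all tested genes. Of the 21 cytosolic genes, 20 rose and 0 fell by edgeR's quasi-likelihood test, at a Benjamini-Hochberg adjusted p under 0.05 over 15401 genes. Of the 17 mitochondrial genes, 8 rose, 0 fell and 9 did not pass. At an unadjusted p under 0.05, 0 of the 38 were lower, and DESeq2 and limma voom also called 0 lower. Over all tested genes, 24.7% were called higher and 21.9% lower. A rise of at least 2-fold that also passed the test was reached by 17 of 21 cytosolic and 7 of 17 mitochondrial genes, against 17.9% of all tested genes.

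The median log2 fold change was 1.36 for cytosolic genes, a 2.56-fold higher level, and 0.51 for mitochondrial genes, or 1.42-fold. Over all tested genes the median was 0.04. With upper quartile scaling, which lowered the median of all genes to -0.06, the cytosolic and mitochondrial medians were 1.25 and 0.40. Every lymphoma lay above every CD4 library in CPM at 19 of 21 cytosolic and 8 of 17 mitochondrial genes, where 22.6% of all tested genes did so. The lists are described by these counts and medians, and the difference between them was not tested as such.

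**Figure D1:**
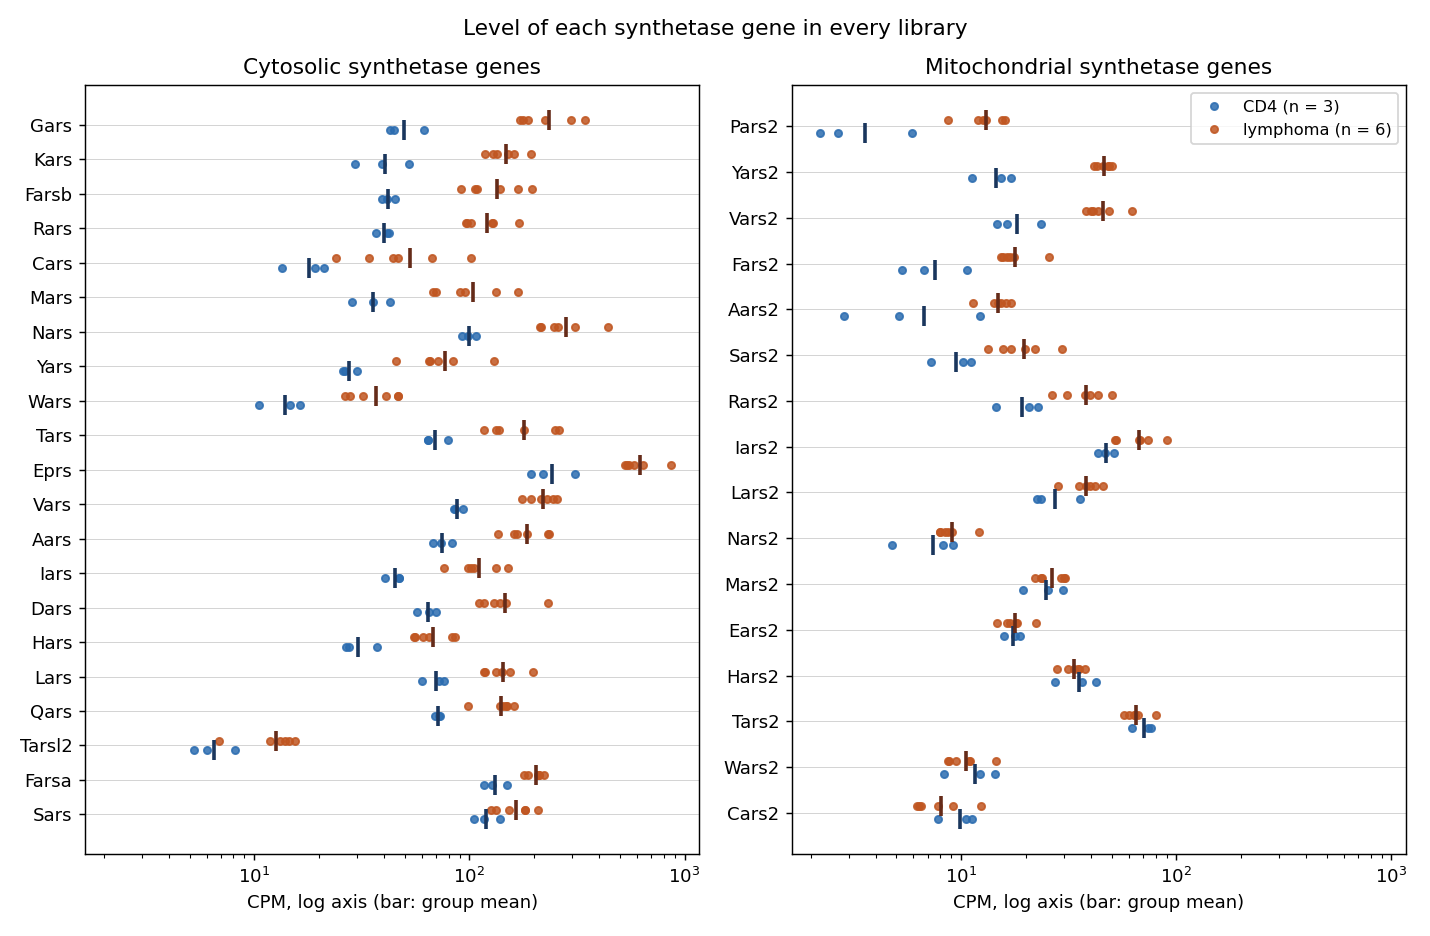
Level of 37 of the 38 synthetase genes in CPM (x axis, logarithmic), with 1 point per library for CD4 (n = 3) and lymphoma (n = 6) and a bar at each group mean. Genes are ordered by fitted change, from Gars and Pars2 at the top to Sars and Cars2 at the bottom, and at 19 cytosolic and 7 of the mitochondrial genes shown all lymphoma points lie to the right of all CD4 points.

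Summed over the family, synthetase transcripts took 0.381% ± 0.0509 (SD, n = 6) of gene counts in lymphoma and 0.174% ± 0.00524 (SD, n = 3) in CD4. In CPM, cytosolic synthetases summed to 3379 ± 617 (SD, n = 6) for the lymphomas and 1378 ± 49.5 (SD, n = 3) for the controls. Mitochondrial synthetases summed to 496 ± 61.8 (SD, n = 6) and 337 ± 29.5 (SD, n = 3) in the same order. The lowest lymphoma, with 2772 CPM of cytosolic synthetases, was above the highest CD4 library, with 1432 CPM. For the mitochondrial sum the nearest values were 424 CPM in lymphoma 72 and 354 CPM in CD4 2.

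Promoters were searched because many cytosolic members moved together and because the series concerns a MYC protein. RefSeq windows of 300 bases (250 before and 50 after a RefSeq start, GRCm38.p6) were at hand for 28 of the 38 genes, in 29 windows. Those without a window included Cars, Hars, Hars2, Lars, Nars, Pars2, Rars, Vars and Wars. Searched on both strands were CACGTG, the E-box that MYC proteins can bind, and TGATGNAA, the core of the element bound by ATF4 with C/EBP partners. In these genes no match of one overlapped a match of the other. CACGTG was found in 7.15% of all 32851 windows and TGATGNAA in 3.97%. Among the 14 cytosolic genes with a window, CACGTG was present at 4 (Aars, Farsb, Iars and Tars) and TGATGNAA at 5 (Aars, Gars, Iars, Tars and Yars). Among the 14 mitochondrial genes it was CACGTG at 1 (Ears2) and TGATGNAA at 0. Aars, Iars and Tars held both motifs, as did 0.2% of all windows. The stretches are printed 5′ to 3′ on the gene's strand with the motifs in capitals, TGATGNAA appearing as its reverse complement except in Yars, so that the letters behind these counts can be seen.
Aars, chr8:111033686-111033747, plus strand: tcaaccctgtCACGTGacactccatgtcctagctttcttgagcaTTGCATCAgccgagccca
Aars, chr8:111033841-111033868, plus strand: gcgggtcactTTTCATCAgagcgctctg
Iars, chr13:49682051-49682076, plus strand: ccaatcgccaCACGTGttgtttgtag
Iars, chr13:49682127-49682154, plus strand: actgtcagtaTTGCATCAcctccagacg
Tars, chr15:11399656-11399683, minus strand: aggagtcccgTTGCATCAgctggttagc
Tars, chr15:11399624-11399649, minus strand: cgcctgtggcCACGTGgcgcacgcgc
Gars, chr6:55037961-55037988, plus strand: ggctgcgctaTTTCATCAtgcaccgggc
Yars, chr4:129189896-129189923, plus strand: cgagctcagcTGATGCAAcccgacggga
Farsb, chr1:78488921-78488946, minus strand: agacaggcatCACGTGagacagccca
Ears2, chr7:122067050-122067075, minus strand: cgaaggagccCACGTGtgtgtttcta
The 6-letter E-boxes began at -146 in Aars, -69 in Iars and -39 in Farsb, counted with the RefSeq start of the window as 0, and after that start at 19 in Tars and 21 in Ears2. This start can differ from the start of the gene in GENCODE, whose coordinates are given for single genes below. The printed stretches of Aars, Ears2 and Yars, for example, lie within the longer GENCODE genes. A match describes letters in a window and was not measured as binding here.

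Gars, the glycyl enzyme of cytosol and mitochondria, had the largest fitted rise of the family. The gene (ENSMUSG00000029777) lies on the plus strand at chr6:55038007-55079500 of GRCm38. It had 188, 343, 224, 172, 178 and 297 CPM in lymphomas 34, 53, 56, 70, 72 and 86, and 42.8, 44.6 and 61.4 CPM in CD4 1, 2 and 3. The lowest lymphoma was far above the highest control, and lymphomas 53 and 86 were the highest. The fitted change was 4.70-fold (log2 2.23, SE 0.275, edgeR adjusted p 5.26e-05). Its window holds the TGATGNAA match printed above.

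Kars, which charges lysine in both compartments and sits in the multisynthetase complex, was next among the cytosolic genes. The gene (ENSMUSG00000031948, chr8:111993443-112011323, minus strand) had 134, 162, 151, 118, 129 and 194 CPM in the lymphomas in the same order. In CD4 it had 52.2, 39.4 and 29.4 CPM. The groups did not overlap, and the change was 3.66-fold (log2 1.87, SE 0.231, edgeR adjusted p 5.39e-05).

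Among mitochondrial enzymes, Pars2 had one of the 4 largest rises of the family. The prolyl gene Pars2 (ENSMUSG00000043572, chr4:106651069-106655282, plus strand) had 8.70, 11.96, 16.0, 12.6, 13.1 and 15.4 CPM against 2.67, 5.88 and 2.20 CPM. Its groups were apart, with lymphoma 34 nearest to CD4 2, and the change was 3.63-fold (log2 1.86, SE 0.387, edgeR adjusted p 0.00201).

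The 2 members nearest to no change were mitochondrial. Ears2, which charges glutamate (chr7:122037213-122067263, minus strand), had 14.6, 22.2, 16.4, 16.9, 18.2 and 17.9 CPM in the lymphomas and 17.8, 18.8 and 15.8 CPM in CD4. The groups overlapped fully, at a log2 difference of 0.02 (SE 0.214, edgeR adjusted p 0.954). The histidyl gene Hars2 had 28.0, 31.4, 34.9, 37.6, 33.5 and 35.3 CPM against 27.3, 42.4 and 36.4 CPM. It too overlapped, at -0.08 (SE 0.185, edgeR adjusted p 0.758). The signs of both depended on the setting: Ears2 was below 0 under RLE, upper quartile and library size scaling, and Hars2 was above 0 without lymphoma 34 or CD4 2.

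**Figure D2:**
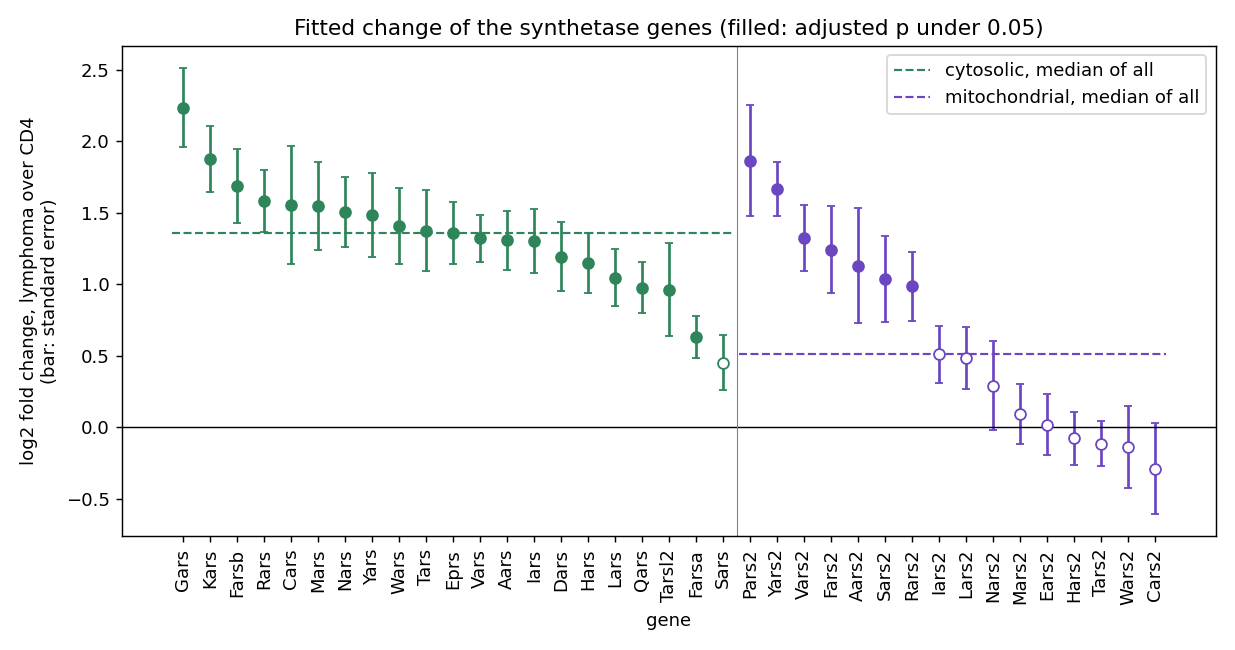
Log2 fold change of lymphoma over CD4 (y axis) with its standard error for 37 of the 38 genes, cytosolic on the left and mitochondrial on the right, filled where the adjusted p is under 0.05. Dashed lines mark the medians of 1.36 and 0.51 over all genes of each set; the cytosolic genes lie in a band from 0.45 to 2.23, and the mitochondrial genes shown spread from -0.29 to 1.86.

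The 8 cytosolic synthetases of the multisynthetase complex (Dars, Eprs, Iars, Kars, Lars, Mars, Qars and Rars) all rose, with a median log2 fold change of 1.33 and a range of 0.98 to 1.87. Of the 13 cytosolic genes outside it, 12 rose, with a median of 1.37, where 24.7% of all tested genes were called higher. Eprs, the joined glutamyl and prolyl enzyme, had 528 to 868 CPM in lymphoma (median 566) and 194 to 310 CPM in CD4, a rise of 1.36 (SE 0.215, edgeR adjusted p 0.000321). The arginyl gene Rars went from 36.8 to 42.1 CPM in CD4 to 96.0 to 169 CPM in lymphoma, a rise of 1.58 (SE 0.216, edgeR adjusted p 0.000111). Qars, the glutaminyl enzyme, showed the smallest rise of the complex at 0.98 (SE 0.176, edgeR adjusted p 0.00078). It stood at 68.9 to 72.7 CPM in CD4 and 98.9 to 162 CPM in lymphoma, where lymphoma 53 was the lowest.

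The scaffold genes of the complex were measured as well. Eef1e1 rose by 1.49 (SE 0.243, edgeR adjusted p 0.000407), from 9.45 to 14.2 CPM in CD4 to 24.2 to 39.1 CPM in lymphoma. Aimp1 rose by 0.69 (SE 0.163, edgeR adjusted p 0.00437), with 111 to 152 CPM in CD4 and 194 to 255 CPM in lymphoma. Aimp2 was hardly counted, with at most 17 reads in a lymphoma and 15 in a control, and did not pass (log2 fold change -0.36, edgeR adjusted p 0.829). Without CD4 2 its fitted value was 2.33. All exon bases in the last 500 genomic bases of Aimp2 (100%) also lie in exons of Eif2ak1 on the other strand, so its level is uncertain.

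Outside the complex, Nars, which charges asparagine, rose from 92.4 to 107 CPM in CD4 to 213 to 442 CPM in lymphoma (log2 1.503, SE 0.244, edgeR adjusted p 0.000381). The valyl gene Vars had one of the smallest errors, with 84.5 to 93.0 CPM in CD4 and 177 to 254 CPM in lymphoma (log2 1.32, SE 0.165, edgeR adjusted p 5.97e-05). Cars, which charges cysteine, had the largest spread: 24.1 CPM in lymphoma 34 and 102 CPM in lymphoma 53, a 4.21-fold range, against 13.4 to 21.2 CPM in CD4. Its rise of 1.55 (SE 0.414, edgeR adjusted p 0.00944) passed the test with the groups just apart.

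The tryptophanyl gene Wars is known as a target of interferon gamma as well. It went from 10.6 to 16.3 CPM in CD4 to 26.4 to 46.7 CPM in lymphoma (log2 1.40, SE 0.264, edgeR adjusted p 0.00105). Of 24 listed interferon gamma genes, 22 were tested, 18 fell and 1 rose, with a median log2 fold change of -2.27. Over all tested genes 21.9% were called lower and 24.7% higher. The GTPase Iigp1 fell most, by 5.33 (SE 0.849), with a fitted value of -6.14 without lymphoma 86, and the proteasome gene Psmb8 was the only listed gene that rose (0.77, SE 0.147, edgeR adjusted p 0.00118). Of the 22, 2 had a fitted value above 0. The part of interferon gamma in the level of Wars was not tested.

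The remaining cytosolic genes ranged as follows. Aars, Dars, Farsb, Hars, Iars, Lars, Mars, Tars and Yars had fitted log2 fold changes from 1.05 (Lars) to 1.68 (Farsb), all with edgeR adjusted p under 0.05 and no overlap between groups. The phenylalanyl enzyme is a tetramer of FARSA and FARSB chains. Farsb rose by 1.68 (SE 0.257, edgeR adjusted p 0.000248) and Farsa by 0.63 (SE 0.147, edgeR adjusted p 0.00424), the smallest rise among the called genes of the family. Farsa had 117 to 149 CPM in CD4 and 180 to 223 CPM in lymphoma, and Farsb 39.2 to 44.9 and 91.4 to 195 CPM. The difference between the subunits was not tested. The level of Farsb is uncertain, because its 3′ end lies in exons of a gene on the other strand.

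Sars, the seryl enzyme, was the single cytosolic gene not called. It had 134, 126, 182, 153, 182 and 209 CPM in the lymphomas and 139, 105 and 117 CPM in CD4, so that lymphomas 34 and 53 lay among the controls. The fitted difference was 0.45 (SE 0.193, edgeR adjusted p 0.0744). Without lymphoma 53 it was 0.51 with an edgeR adjusted p of 0.0214, and without lymphoma 34 it was 0.54 at 0.0467, over a range of 0.0214 to 0.231 in 17 alternatives. Tarsl2, a second threonyl enzyme of the cytosol, rose by 0.96 (SE 0.324, edgeR adjusted p 0.0289), but lymphoma 53 at 6.85 CPM fell among the CD4 libraries at 5.25 to 8.16 CPM, while the others had 11.8 to 15.4 CPM. The call for Tarsl2 was lost without lymphoma 72 (adjusted p 0.0552), CD4 1 (0.0922) or CD4 3 (0.0843), with adjusted p from 0.00385 to 0.0922 over its alternatives.

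Besides Pars2, the mitochondrial genes that rose included Yars2, Vars2, Fars2, Aars2, Sars2 and Rars2. Yars2, the tyrosyl enzyme, was the most even of them: 41.6 to 50.1 CPM in lymphoma and 11.3 to 17.0 CPM in CD4, a rise of 1.67 (SE 0.190, edgeR adjusted p 2.98e-05). The valyl gene Vars2 rose by 1.32 (SE 0.229) and the phenylalanyl gene Fars2 by 1.24 (SE 0.302), with edgeR adjusted p of 0.000617 and 0.00531. Rars2 rose by 0.98 (SE 0.244, edgeR adjusted p 0.0060). Sars2 rose by 1.04 (SE 0.302, edgeR adjusted p 0.0143), a call that was lost without CD4 2 (adjusted p 0.0640, the highest of its alternatives, which began at 0.00482).

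Aars2, the mitochondrial alanyl enzyme, was the least certain rise. It had 17.0, 16.1, 14.8, 15.3, 11.3 and 14.2 CPM in the lymphomas and 2.86, 5.16 and 12.2 CPM in CD4, with CD4 3 above lymphoma 72. The log2 fold change was 1.13 (SE 0.402, edgeR adjusted p 0.0369) and 1.89 without CD4 3 (adjusted p 0.00225). The call was lost with upper quartile scaling (0.0533) and without lymphoma 34 (0.0532), lymphoma 56 (0.0526), CD4 1 (0.108) or CD4 2 (0.131), the highest value of its alternatives.

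The 9 mitochondrial genes that did not pass were Iars2, Lars2, Nars2, Mars2, Ears2, Hars2, Tars2, Wars2 and Cars2. Iars2, the isoleucyl enzyme, had 51.7 to 90.03 CPM in lymphoma and 43.3 to 51.5 CPM in CD4. Its groups just did not overlap, and the change of 0.51 (SE 0.200) missed the threshold at an edgeR adjusted p of 0.0539. It passed without lymphoma 53 (0.0448), lymphoma 70 (0.0250) or lymphoma 72 (0.0365), over a range of 0.0250 to 0.154. Lars2 was at 0.48 (edgeR adjusted p 0.0856) and passed without CD4 1 (0.74, adjusted p 0.0198, range 0.0198 to 0.263). For the other genes the fitted values lay between -0.29 (Cars2, SE 0.317) and 0.29 (Nars2, SE 0.311), with edgeR adjusted p from 0.479 to 0.954, which does not show that their levels were equal. The threonyl gene Tars2 had the smallest error of these, at -0.12 (SE 0.158), with 56.9 to 80.4 CPM in lymphoma and 62.4 to 76.2 CPM in CD4.

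By structural class, 9 of 9 cytosolic class I genes and 10 of 11 class II genes rose, and Eprs, which joins both classes, rose too. Among mitochondrial genes it was 3 of 9 in class I and 5 of 8 in class II, with medians of 0.48 and 1.08. Over all tested genes 24.7% were called higher, and the classes were not tested against each other. Cytosolic medians were 1.40 and 1.31.

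Cytosolic and mitochondrial genes for the same amino acid were set against each other within each library, so that library scaling cancels apart from the prior count. Of 17 such pairs, 11 had a higher mean ratio in lymphoma and 6 a lower one. Not all pairs are separate: Eprs was set against Ears2 and Pars2, and Fars2 entered with Farsa and with Farsb. The mean log2 CPM of cytosolic genes minus that of mitochondrial genes was 2.16, 2.39, 2.35, 2.32, 2.36 and 2.52 in the lymphomas and 2.01, 1.65 and 1.69 in CD4. The group means were 2.35 ± 0.116 (SD, n = 6) and 1.78 ± 0.196 (SD, n = 3), a difference of 0.57 with lymphoma 34 nearest to CD4 1. These ratios are given as descriptions, with no test.

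The ratio shifted most for cysteine, where Cars over Cars2 had a mean log2 value of 2.58 ± 0.778 (SD, n = 6) in lymphoma and 0.84 ± 0.545 (SD, n = 3) in CD4. For threonine, Tars over Tars2 was 1.40 ± 0.390 (SD, n = 6) against -0.03 ± 0.330 (SD, n = 3). Tryptophan, methionine, glutamate (Eprs over Ears2), histidine and asparagine showed differences of 1.51, 1.38, 1.35, 1.203 and 1.14, and isoleucine one of 0.78. In each of these pairs every lymphoma was above every CD4 library. The ratios with Cars2 and Iars2 are less certain, because the 3′ ends of these 2 genes lie in exons of a gene on the other strand (100%).

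For valine the ratio hardly differed between groups, at 2.27 ± 0.198 (SD, n = 6) and 2.29 ± 0.402 (SD, n = 3). Serine, tyrosine, alanine, proline (Eprs over Pars2), arginine, leucine and phenylalanine with either chain had overlapping groups. The difference was below 0 for Farsa over Fars2 (-0.64), serine (-0.57), proline (-0.55), tyrosine (-0.27) and alanine (-0.06). It was above 0 for arginine (0.58), leucine (0.53) and Farsb over Fars2 (0.36). The phenylalanine ratios are less certain, because Fars2 and Farsb share their 3′ ends with a gene on the other strand. For alanine the CD4 values alone spanned 2.46 to 4.78, and the difference of -0.06 became 0.49 without CD4 1 and -0.67 without CD4 3.

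**Figure D3:**
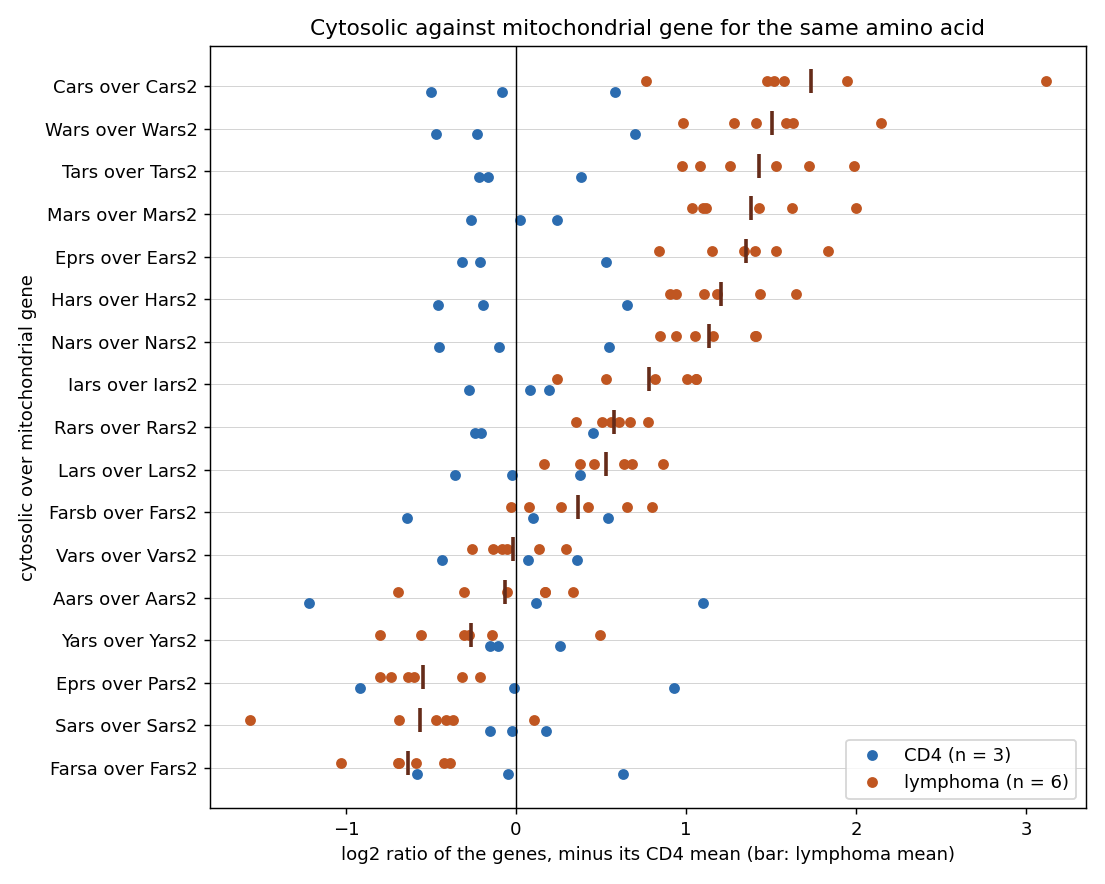
Log2 ratio of the cytosolic to the mitochondrial gene of the same amino acid, minus its CD4 mean (x axis), in each library for 17 pairs (y axis), with a bar at the lymphoma mean. From Cars over Cars2 (mean shift 1.73) down to Iars over Iars2 (0.78) the lymphoma points lie to the right of all CD4 points, and in the pairs below the groups overlap, down to Farsa over Fars2 (-0.64). Levels of Cars2, Iars2, Fars2 and Farsb are uncertain because of shared 3′ ends.

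Among the 6 lymphomas, synthetase levels differed by library. Lymphoma 53 had the highest level of 18 of the 38 genes and lymphoma 86 of 15, while lymphoma 34 had the lowest level of 16. For cytosolic genes the median log2 distance from the middle of the 6 lymphomas was 0.45 in lymphoma 86, 0.35 in lymphoma 53 and -0.22 in lymphoma 34. Lymphoma 53 was at once the lowest for 3 cytosolic genes, Qars, Sars and Tarsl2. Its reads in genes were also the lowest share of the lymphomas, 38.7% against 43.6 to 49.1%, and it is the library that stood apart in Cd8a, Thy1, Mki67 and Irf8. Their part in the synthetase levels of lymphoma 53 was not tested.

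Tars illustrates the pattern, with 117, 261, 180, 138, 134 and 250.7 CPM in lymphomas 34, 53, 56, 70, 72 and 86 and 64.3 to 79.7 CPM in CD4. The tyrosyl gene Yars had 45.4, 130, 64.8, 71.5, 65.6 and 83.5 CPM against 25.9 to 30.1 CPM. Lymphomas 53 and 86 were the highest for both, and even the lowest lymphoma was above CD4. Without lymphoma 53 the median log2 fold change was 1.25 for cytosolic and 0.51 for mitochondrial genes, with 21 and 9 genes called higher.

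**Figure D4:**
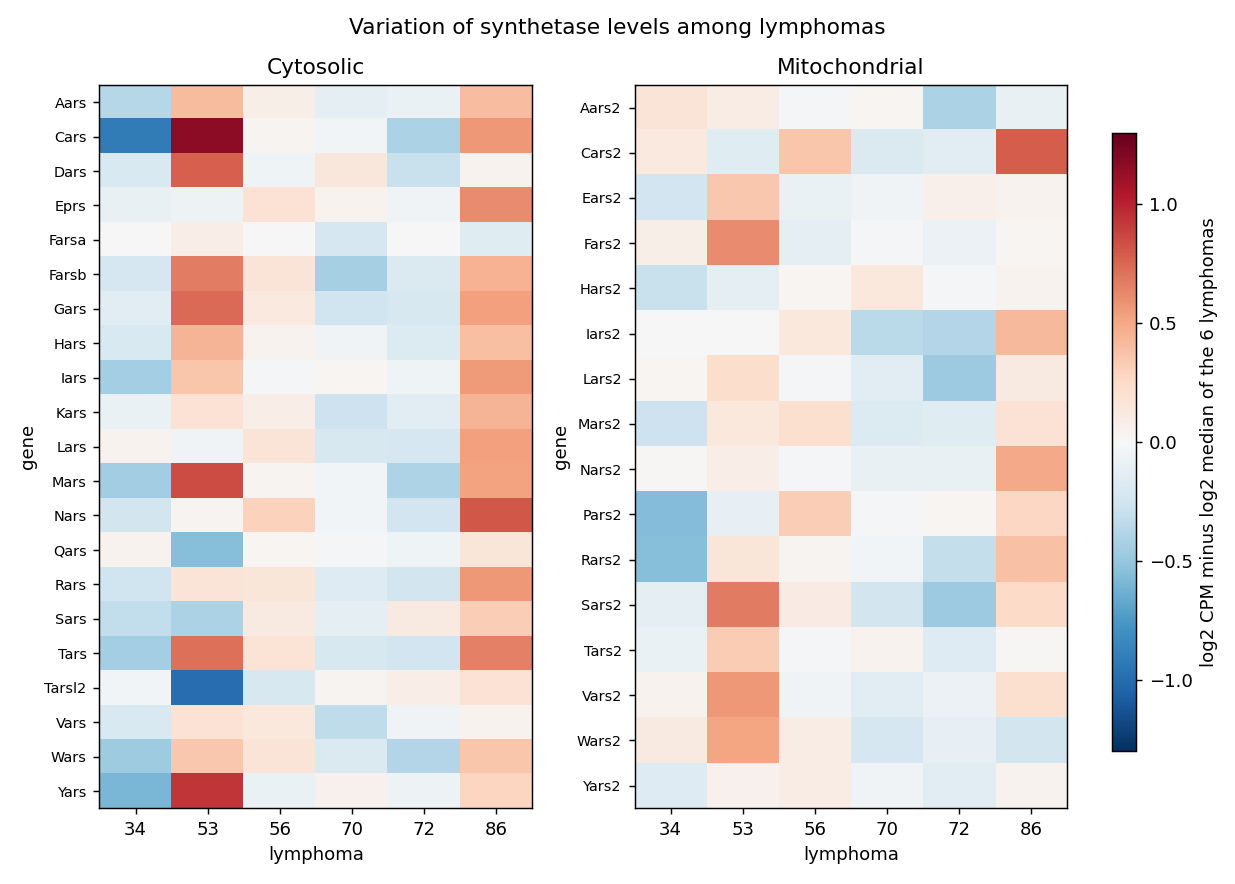
Log2 CPM of 37 of the 38 synthetase genes in each of the 6 lymphomas minus the log2 median of the 6 (colour, red high and blue low), with cytosolic genes on the left and mitochondrial genes on the right. Lymphomas 53 and 86 hold the highest level of 18 and 15 of all 38 genes, 53 being the lowest at Qars, Sars and Tarsl2, and lymphoma 34 is the lowest for 10 cytosolic genes.

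Genes of the amino acid response, the set known to act with ATF4, were followed because it shares cytosolic synthetases as targets. Of 37 listed genes 34 were tested, 17 rose, 3 fell and the median was 0.88. Among all tested genes 24.7% were called higher and 21.9% lower. Asns, which makes asparagine, rose most: it had 16.6, 93.9, 27.1, 16.5, 5.17 and 44.8 CPM in the lymphomas and 0.477, 0.240 and 1.65 CPM in CD4 (log2 5.36, SE 1.09, edgeR adjusted p 0.00265). As with many synthetases, lymphomas 53 and 86 had the highest levels. Its fitted value was 4.73 without lymphoma 53 and 6.50 without CD4 3, and its call was lost with limma voom (adjusted p 0.0968, range 8.65e-08 to 0.0968).

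Psat1, an enzyme of serine synthesis chosen after its values were seen, rose by 3.76 (SE 0.213, edgeR adjusted p 2.47e-07), from 17.1 to 23.3 CPM in CD4 to 236 to 344 CPM in lymphoma. The transcript of Atf4 itself, also chosen afterwards, did not differ beyond the replicate spread (-0.16, SE 0.251, edgeR adjusted p 0.638), with 218 to 410 CPM in lymphoma and 211 to 468 CPM in CD4, and its sign turned without CD4 3 (0.22). The activity of the ATF4 protein was not measured. Atf3 had the largest fall (-4.81, SE 0.950, edgeR adjusted p 0.00192), but CD4 3 held 62.4 CPM where the other controls had 3.48 and 3.72 CPM. Without CD4 3 the fall of Atf3 was 2.10 and the call was lost (adjusted p 0.0639, range 0.00131 to 0.0639). Ppp1r15a also fell (-4.27, SE 0.483, edgeR adjusted p 5.12e-05), with 4.37 to 9.53 CPM in lymphoma and 45.8, 70.9 and 269 CPM in CD4. The third fall was Ddit3 (-1.20, SE 0.303, edgeR adjusted p 0.00656), with 10.2 to 28.2 CPM in lymphoma and 32.3 to 52.6 CPM in CD4. Without CD4 3, 1 gene of the list was called lower.

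Other genes of tRNA supply and use were counted in the same way, to be read against the 24.7% of all tested genes called higher and the 21.9% called lower. The lists were not tested against each other. Of 16 partners of charging (transamidase subunits, editing factors, peptidyl-tRNA hydrolases and the scaffold genes), 8 rose and 1 fell, with a median of 0.73. Prorsd1, related to the editing domain of bacterial prolyl enzymes, fell by 0.51 (SE 0.180, edgeR adjusted p 0.0368), and this was lost in 8 of 17 alternatives: with no filter and without lymphoma 34, 56, 70 or 86 or CD4 1, 2 or 3 (range of adjusted p 0.0134 to 0.197).

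Of 13 tested genes of mitochondrial translation, 6 rose and 0 fell by edgeR, with a median of 0.76. At an unadjusted p under 0.05 in edgeR 1 was lower, and DESeq2 called 1 lower and limma voom 0. Gatb, a subunit of the amidotransferase that completes mitochondrial glutaminyl-tRNA in place of a separate synthetase, rose most (1.66, SE 0.355, edgeR adjusted p 0.00236), from 3.36 to 6.11 CPM in CD4 to 9.92 to 19.4 CPM in lymphoma. Of 11 tested factors of cytosolic elongation and termination, 7 rose and 1 fell, with a median of 1.02. Eif5a, which helps ribosomes past stalling sequences, rose by 2.60 (SE 0.256, edgeR adjusted p 1.03e-05). Gtpbp2, a GTPase linked to ribosome rescue, fell by 1.84 (SE 0.191, edgeR adjusted p 1.51e-05).

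For tRNA processing, 17 of 23 tested genes rose and 1 fell, with a median of 0.99. Rpp25, a ribonuclease P subunit, had 0 counts in all CD4 libraries, which makes lymphoma at least 10.2-fold higher, set against a floor of 3 counts in each CD4 library. Elac1, which trims tRNA 3′ ends, fell by 1.18 (SE 0.424, edgeR adjusted p 0.0384), and the call was lost in 7 of 17 alternatives: with no filter and without lymphoma 34, 70, 72 or 86 or CD4 1 or 2 (range 0.0080 to 0.213).

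For tRNA modification, 22 of 38 tested genes rose and 1 fell, with a median of 0.86. Thg1l, which adds the extra guanosine of histidine tRNA, rose most (2.42, SE 0.304, edgeR adjusted p 6.1e-05). Nsun6, a cytosine methyltransferase, fell by 1.05 (SE 0.333, edgeR adjusted p 0.0216), a call lost without CD4 2 (0.111, range 0.00423 to 0.111). Genes of RNA polymerase III, which makes tRNA, were called higher in 8 of 24 cases and lower in 1, a share not far from the 24.7% called higher over all tested genes, with a median of 0.44. Polr3f, a subunit gene, fell by 0.51 (SE 0.157, edgeR adjusted p 0.0185), which was lost with no filter and without lymphoma 70, CD4 1 or CD4 2 (range 0.00268 to 0.0807).

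Some synthetase genes share their 3′ end with a neighbour, which matters for reads taken from transcript ends. The exon bases within the last 500 genomic bases of each annotated gene were compared with the exons of other genes in the GENCODE annotation of GRCm38. They lay in exons of a gene on the other strand for 100% in Cars2, Fars2, Farsb and Iars2, 17% in Mars and 6% in Yars. Reads there may have been set aside as ambiguous or counted for the neighbour, since the strand setting is not given in the sources used here, and the levels of these genes are uncertain to that extent. The ambiguous share was 3.74 to 5.07% of all reads in lymphoma and 4.69 to 5.96% in CD4. Gars, Kars, Yars2 and Pars2 overlap no exon of another gene in that annotation.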

How the data were processed

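The deposited table holds raw read counts per Ensembl gene and library, per the file headers. The submitters' processing notes list FastQC, HISAT2, SAMtools, HTSeq and the build mm10 (GRCm38), with no versions. RNA came from an automated kit and libraries followed Illumina procedures, per the labels' protocols. The annotation and strand setting are not given in the sources used here. The 5 closing summary rows (no feature, ambiguous, low quality, unaligned, multiply aligned) entered neither library sizes nor tests, which left 27.8 to 49.1% of reads in genes. Columns matching no sample numbered 0, and 0 pairs of libraries were identical.

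All 9 libraries were fitted in edgeR 4.0.16 (R 4.3.3): filterByExpr with a minimum count of 10 left 15401 genes, scaled by TMM and tested with glmQLFit (robust) and glmQLFTest without covariates. P-values were adjusted by Benjamini-Hochberg across all tested genes, with 0.05 as threshold. Fold changes are lymphoma over CD4, and the standard error is the absolute log2 fold change over the square root of F. CPM relates a count to 1000000 reads of the library after TMM scaling, and its log2 form adds a prior count of 2. A count of 3 is the limit that a count of 0 allows, for counting error only. The code was tested on simulated data with less spread and fewer changed genes than these data, which checks the code and not the calls made here. Alternatives were RLE, upper quartile and library size scaling, no filter, at least 10 counts in every library, DESeq2 1.42.0, limma voom 3.58.1, edgeR without robust estimation, an adjusted p under 0.01, prior count 0.5, other class assignments and leaving out each library.

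Members were chosen by symbol, and members and lists were chosen with earlier results of these data known. Values in every library are given for the 4 largest rises, for the 2 genes nearest to 0 and for some further members. Of each related list, the largest rise and fall past the threshold are named, and every gene of the scaffold list. Some genes that fall under these rules are not reported here by name and stay in the counts and medians; a pair of genes that holds one was left out. Levels are not compared between genes.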

Additional observations from a re-analysis of the deposited data

Results flagged for a closer look

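Each of 58 results (the CPM of 38 genes, 17 ratios and 3 summary levels) was examined among the 6 lymphomas for a library far from the rest, meaning that its gap to the next value took more than 0.625 of the range (Dixon's 95% limit), which chance passes in about 1 of 20 groups. This held for 5, where chance gives 2.9, and 3 of them concern lymphoma 53. Lymphoma 53 stood apart for Dars (231 CPM, the others 110 to 149), Fars2 (25.5 CPM, the others 15.3 to 17.5) and Qars (98.9 CPM, the others 139 to 162). Lymphoma 86 stood apart for Eprs (868 CPM, the others 528 to 643) and for Nars2 (12.1 CPM, the others 7.96 to 9.04). Of these genes, all but Nars2 rose in the comparison with CD4, and for none did leaving out the distant lymphoma move the call.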

How the results depend on the processing

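Of the 38 synthetases, 28 kept their sign and side of the threshold in all 17 alternatives and 34 kept their sign. Cytosolic genes called higher numbered 18 to 21 and mitochondrial ones 6 to 9 over the alternatives, with 0 lower; the medians were 1.25 to 1.44 and 0.40 to 0.74. Calls lost or gained are given beside each gene. Signs turned for Ears2 with RLE (-0.041), upper quartile (-0.090) and library size scaling (-0.026), at least 10 counts in every library (-0.051), DESeq2 (-0.041) and without lymphoma 53 (-0.062) or CD4 3 (-0.042), and it ranged up to 0.11 with 1 library left out. They also turned for Hars2 without lymphoma 34 (0.0099) or CD4 2 (0.077; lowest -0.22), Mars2 with upper quartile scaling (-0.016) or without CD4 1 (-0.046; highest 0.25), Wars2 without CD4 3 (0.050; lowest -0.32), Aimp2 with limma voom (0.66) or without CD4 2 (2.33), and Atf4 without CD4 3 (0.22; lowest -0.38). At an adjusted p under 0.01, charging partners had 5 higher and 0 lower, tRNA processing 11 higher and 0 lower, and tRNA modification and RNA polymerase III 0 lower. With no filter, charging partners, tRNA processing and RNA polymerase III had 0 lower. Mitochondrial translation had 1 lower with RLE, upper quartile or library size scaling, at least 10 counts in every library, or DESeq2, and RNA polymerase III had 2 lower with upper quartile scaling. Leaving out 1 library at a time, genes called lower numbered 0 to 1 for charging partners, mitochondrial translation, tRNA processing and tRNA modification, 0 to 3 for RNA polymerase III and 1 to 3 for the amino acid response. The shift of the ratio then ranged from -0.67 to 0.49 for Aars, -0.23 to 0.16 for Vars, 0.97 to 1.53 for Hars, 0.91 to 1.41 for Nars, 0.46 to 0.80 for Rars, -1.01 to -0.086 for Eprs over Pars2 and -0.93 to -0.32 for Farsa over Fars2. The cause was not tested. No paired analysis was possible because the groups share no replicate numbers. Few counts limit the precision for genes such as Aimp2 (at most 17 in a lymphoma, SE 1.19).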
